A study of Mus musculus with 4 samples.

Results

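The genes described here are 10 human genes that handle heme and iron: HMOX1, TFRC, SLC40A1, CD163, FTH1, FTL, BLVRA, BLVRB, SLC11A1 and SLC48A1. They were picked by name, and each matched 1 row of the feature lists of both droplet reactions, so that they are 10 of 36601 measured genes. No level of theirs entered the gates of the cell classes, which used other genes. Only the comparisons of macrophages with HMOX1 chose cells by a member, HMOX1 itself. Another 62 genes of heme and iron metabolism were listed for comparison.

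Heme freed from hemoglobin or from cell debris is toxic, and macrophages are the cells that clear it. CD163 takes up hemoglobin bound to haptoglobin, and SLC48A1 (HRG1) carries heme out of the phagolysosome. HMOX1 opens the heme ring to biliverdin, carbon monoxide and iron, and the reductase BLVRA turns this biliverdin into bilirubin. BLVRB is a second biliverdin reductase that acts on other forms of biliverdin. The freed iron is stored in ferritin, which is built from the FTH1 heavy chain and the FTL light chain, or leaves the cell through ferroportin (SLC40A1). Iron enters with transferrin through TFRC, and SLC11A1 (NRAMP1) moves it across the phagosome membrane.

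The cells were live human CD45+ leukocytes sorted from tumors of MDA-MB-231, a human breast carcinoma cell line, grown for 31 days in the mammary fat pad of MISTRG mice. All 14 mice carried human genes for M-CSF, GM-CSF and IL-3 and had been irradiated as pups and engrafted with human fetal liver CD34+ cells, so the leukocytes were human within a mouse host whose own cells were sorted away. The GEO labels give the mouse as the organism, whereas the measured genes are human. Of the 14 mice, 7 were untreated and 7 received maraviroc at 300 mg/l in the drinking water for 10 days from day 21. The mice were told apart by hashtag antibodies, and the treatment of a mouse was read from the name of its hashtag (CTRL or MARAVIROC) in the feature lists.

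Reaction 1 held untreated mice 1 to 4 and maraviroc-treated mice 1 to 3, and reaction 2 held untreated mice 5 to 7 and maraviroc-treated mice 4 to 7. Of 42702 barcodes, 37806 passed the limits on detected genes and mitochondrial share, and 19817 of these carried 1 hashtag (11917 in reaction 1 and 7900 in reaction 2). The median barcode held 2764 unique molecular identifiers (UMIs, counts of captured RNA molecules) in reaction 1 and 10204.5 in reaction 2, and 136 barcodes occurred in both. C1Q transcripts, which belong to macrophages, stood at 951 CPM (UMIs scaled to a total of 1000000) in mast cells, 472 CPM in plasmacytoid dendritic cells (pDC) and 86.0 CPM in T cells of reaction 1, against 28.1, 55.8 and 50.1 CPM in reaction 2. HMOX1 moved the same way, with 131 against 6.25 CPM in mast cells and 120 against 9.74 CPM in pDC. Levels of the members in mast cells and pDC of reaction 1 are therefore not read as expression, and the part of free RNA or of doublets with macrophages was not tested.

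Cells were gated by summed marker UMIs into 9398 myeloid cells, of which 5772 were macrophages with C1QA, C1QB or C1QC. The macrophages without a further state (C1Q+ macrophages, 3268 cells in 14 mice) served as the reference. No gate used TREM2 or SPP1, so the reference can hold cells of the study's TREM2+ cluster and is not its C1Q+ MAF+ cluster. The macrophage states were GLUT1+ (SLC2A1, ADM and NDRG1; 456 cells), MT1G+ (MT1G, MT1H and MT1M; 246 cells), CXCL10+ (CXCL10 and CXCL9; 591 cells), LYVE1+ (147 cells) and cycling (490 cells). A further inflammatory state, gated on IL1A and CCL20, held 104 cells, with at least 10 cells in only 2 mice, and no contrast of it is given. Another 470 macrophages passed several state gates. Both sets are among the 5772 macrophages. Monocytes (1568 cells) had GLUT1+ (200 cells) and MT1G+ (129 cells) states of their own. Another 263 monocytes passed other or several state gates, and 910 myeloid cells passed no finer gate. The gate for type 2 conventional dendritic cells (cDC2) was passed by 434 cells. T cells numbered 3399, NK cells 425, cycling T and NK cells 669, pDC 209, mast cells 219 and B cells 136.

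Markers held out of the gates followed the labels of the states. HILPDA, a hypoxia gene, stood at 78.7 CPM in GLUT1+ and 11.7 CPM in C1Q+ macrophages, and the metallothionein MT1X at 902 CPM in MT1G+ and 85.0 CPM in C1Q+ macrophages. The interferon-induced GBP1 stood at 617 CPM in CXCL10+ against 117 CPM in C1Q+ macrophages, CCL18 at 2829 CPM in LYVE1+ against 62.1 CPM, and the cell cycle gene TYMS at 203 CPM in cycling against 26.1 CPM. CD300E was higher in monocytes (542 CPM) than in C1Q+ macrophages (77.7 CPM). Against the labels, CD14 was lower in monocytes (481 CPM) than in C1Q+ macrophages (1619 CPM), and CD1A reached only 19.2 CPM in cDC2. Human erythroid RNA was low, with HBB at 2.6 CPM in C1Q+ macrophages and at most 9.7 CPM in any myeloid class. Over all kept cells, 8 erythroid genes together stood at 9.88 CPM in reaction 1 and 1.44 CPM in reaction 2. Cells with 3 or more of their UMIs numbered 21 in reaction 1 and 3 in reaction 2. The measured genes are human, so RNA of the host's own red cells was not counted as such.

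Most of the members' UMIs lay in macrophages, which made up 29.1% of the cells and held 36.3% of all UMIs. Macrophages held 88.9% of the UMIs of SLC40A1, the iron exporter, and 74.9% of those of CD163, the hemoglobin receptor. Their share was 61.4% for BLVRB, 59.8% for FTL, 59.2% for HMOX1, 55.2% for SLC48A1, 51.6% for BLVRA and 49.5% for TFRC. For SLC11A1 (41.4%) and FTH1 (40.8%) it was close to the share of all UMIs. Monocytes of all states (2160 cells, 14.9% of all UMIs) held 39.2% of the SLC11A1 UMIs and 1.14% of those of SLC40A1. Myeloid cells without a finer gate had 4.62% of all UMIs, and from 1.35% (SLC40A1) to 8.41% (HMOX1) of a member's UMIs. The T, NK, cycling T and NK, and B cells made up 23.4% of the cells and 23.7% of all UMIs. They held 10.8% of the TFRC UMIs, 5.42% of those of FTH1, 2.04% of those of FTL and 1.10% of those of HMOX1.

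**Figure D1:**
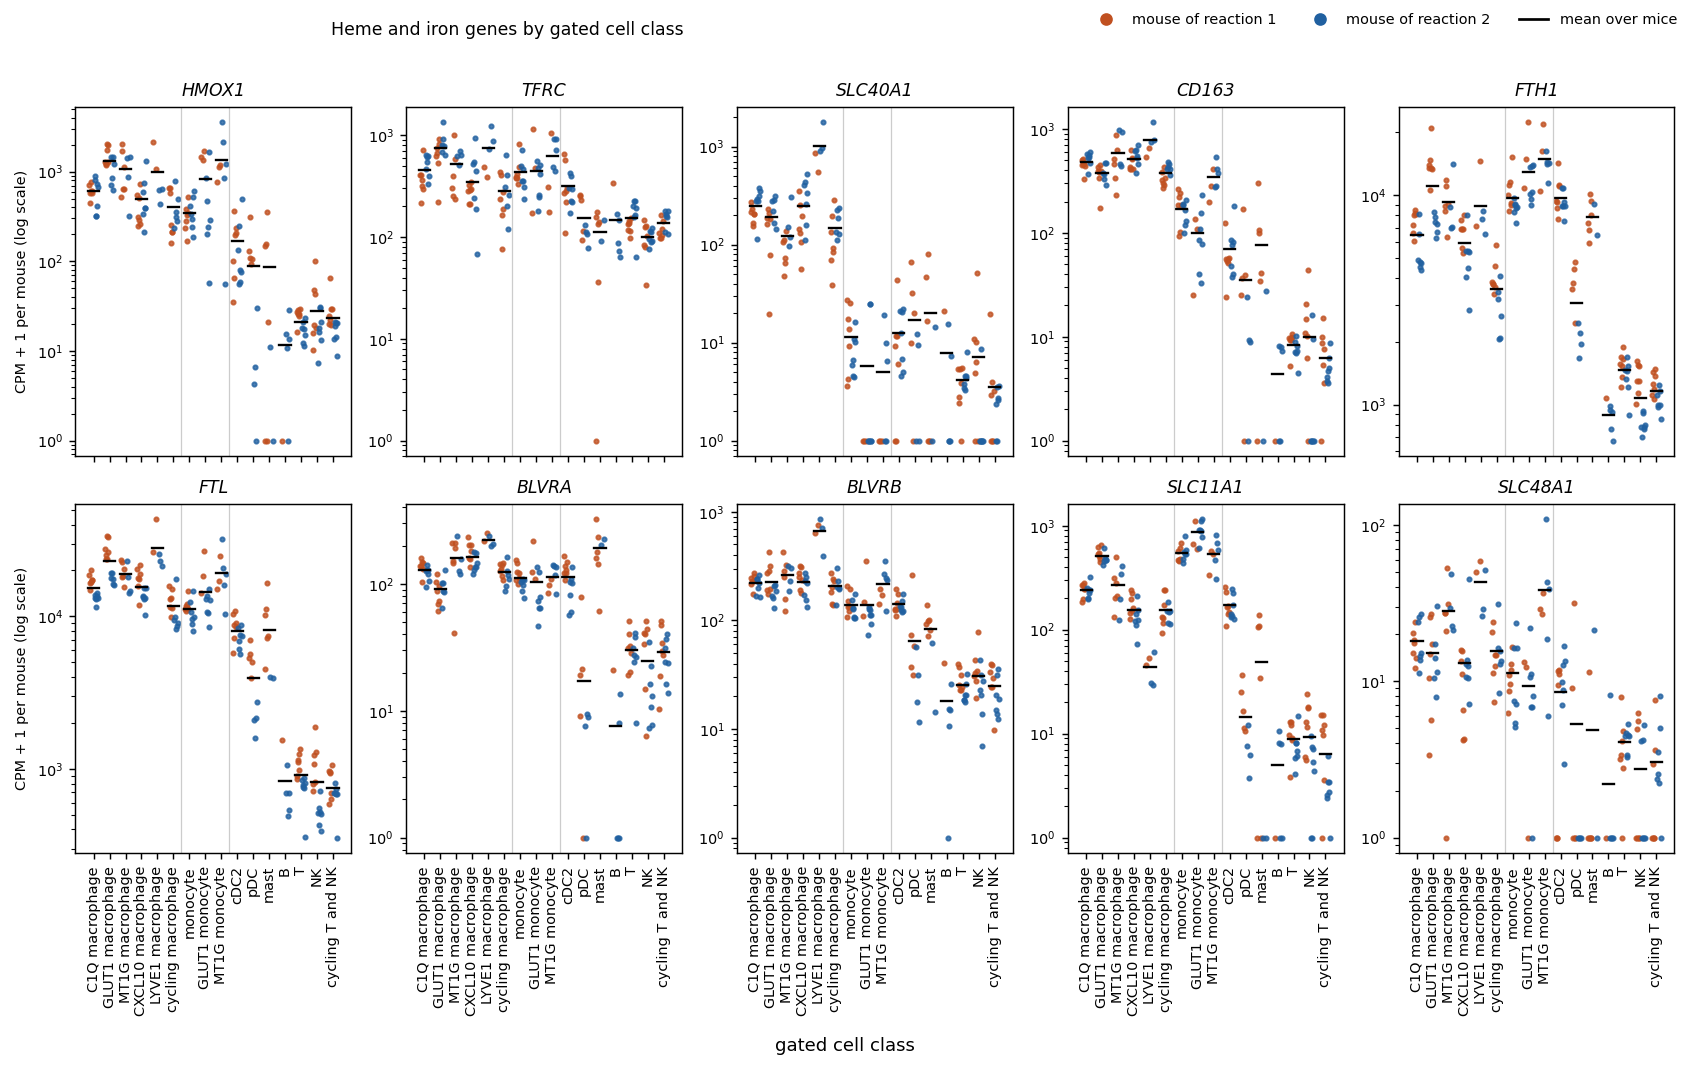
Level of each of the 10 genes by gated cell class, 1 panel per gene, as CPM plus 1 on a logarithmic axis; each point is 1 mouse with at least 10 cells of the class, coloured by reaction, and the bar is the mean over mice. SLC40A1 was high in macrophages (mean 246 CPM in C1Q+ and 1009 CPM in LYVE1+ macrophages) and low in monocytes (10.4 CPM), whereas SLC11A1 was highest in GLUT1+ monocytes (874 CPM).

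CD163 was a macrophage gene in these tumors. It stood at 484 ± 75.3 CPM in C1Q+ macrophages (SD, n = 14 mice), with a lowest mouse at 327 CPM, a median of 484.5 CPM and a highest mouse at 593 CPM. It reached 777 ± 233 CPM in LYVE1+ macrophages (n = 5) and 585 ± 258 CPM in MT1G+ macrophages (n = 10). In monocytes it stood at 170 ± 54.2 CPM (n = 14) and in cDC2 at 68.5 ± 40.6 CPM (n = 14). Cells were then thinned to 2000 UMIs, and shallower cells were left out. Of the thinned cells, 54.6% of C1Q+ macrophages, 18.8% of monocytes, 8.08% of cDC2 and 1.87% of T cells held a CD163 UMI. The last is the level of a cell type that should lack it. The median depths before thinning were 6450.5 UMIs for C1Q+ macrophages, 9764 for monocytes, 13145 for cDC2 and 6231 for T cells. State-gated macrophages were deeper than C1Q+ macrophages: 11527 UMIs in LYVE1+, 8912.5 in GLUT1+, 8165 in CXCL10+, 7915.5 in MT1G+ and 7429 in cycling cells. Among monocytes, MT1G+ cells were deeper (12777) and GLUT1+ cells shallower (8338.5). The class contrasts below were not thinned to a common depth. SLC48A1, the heme transporter, was scarce everywhere: 17.04 ± 5.25 CPM in C1Q+ macrophages, 42.1 ± 14.6 CPM in LYVE1+ macrophages and 3.096 CPM in T cells, with a UMI in 3.42% of thinned C1Q+ macrophages and 0.72% of thinned T cells.

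HMOX1, the inducible heme oxygenase, had its highest means in state-gated cells. They were 1356 ± 1051 CPM in MT1G+ monocytes (n = 8), 1314 ± 437 CPM in GLUT1+ macrophages (n = 13), 1073 ± 565 CPM in MT1G+ macrophages (n = 10), 985 ± 698 CPM in LYVE1+ macrophages (n = 5) and 826 ± 657 CPM in GLUT1+ monocytes (n = 10). The mice were far apart in the MT1G+ monocytes, from 54.9 over a median of 1162 to 3537 CPM, and closer in the GLUT1+ macrophages, from 625 over 1273 to 2035 CPM. C1Q+ macrophages stood at 601 ± 177 CPM, CXCL10+ macrophages at 491 ± 292 CPM, cycling macrophages at 398 ± 207 CPM, monocytes at 348 ± 132 CPM and cDC2 at 166 ± 134 CPM. In this order only the step from monocytes to cDC2 passed adjustment (exact sign-flip permutation test over 14 mice, two-sided p = 0.000366, adjusted p = 0.0108). The order of neighbouring classes above it is therefore not established. The test did not compare classes further apart, and contrasts of some of these are given below. Neighbours that shared few mice, such as LYVE1+ and MT1G+ macrophages with 4 mice in common (smallest possible p = 0.125 in the exact test), could not have passed at any values. Over all 10 genes, 148 neighbouring pairs of classes were compared, of which 26 had an unadjusted p under 0.05 and 12 passed adjustment. For each gene the classes were ordered by the means of the same values that were tested. The pairs and their directions thus came from the data, and these p-values are descriptive.

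HMOX1 was also unevenly spread over cells of a class. Among cells thinned to 2000 UMIs, 59.7% of C1Q+ macrophages held no HMOX1 UMI while 6.58% held 5 or more. The share with 5 or more was 21.1% in GLUT1+ macrophages, 22.0% in MT1G+ monocytes, 15.04% in MT1G+ macrophages, 11.97% in LYVE1+ macrophages and 4.402% in monocytes. The highest single cell, a cycling macrophage, held 74 HMOX1 UMIs among its 2000. T cells held an HMOX1 UMI in 3.86% of thinned cells and 5 or more in 0.0312%.

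The biliverdin reductases were higher in myeloid than in lymphoid classes. Among macrophages and monocytes BLVRA ranged from 89.8 ± 20.7 CPM in GLUT1+ macrophages to 222 ± 21.9 CPM in LYVE1+ macrophages. It stood at 128 ± 18.2 CPM in C1Q+ macrophages and 110 ± 20.7 CPM in monocytes. The mast cell mean was 190 ± 76.5 CPM (n = 8). That mean includes mice of the reaction with high C1Q transcripts in mast cells, where levels are not read as expression. It is therefore not used in the comparison with lymphoid classes. BLVRA fell from GLUT1+ macrophages to T cells at 28.9 ± 10.7 CPM (exact sign-flip permutation test, adjusted p = 0.0108). This pair was picked as neighbours in the order of the same values, so its p-value is descriptive. BLVRB stood at 222 ± 33.9 CPM in C1Q+ macrophages and 139 ± 33.3 CPM in monocytes, and at 668 ± 173 CPM in LYVE1+ macrophages, whose lowest mouse (390 CPM) was above the mean of every other class.

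The ferritin chains were present in all classes and were the most abundant of the members in UMIs. FTH1 stood at 6468 ± 1566 CPM in C1Q+ macrophages, with mice from 4410 to 8498 CPM, and at 9653 ± 1929 CPM in monocytes. It reached 11088 ± 4306 CPM in GLUT1+ macrophages, 12819 ± 3911 CPM in GLUT1+ monocytes and 14830.4 ± 3445 CPM in MT1G+ monocytes, and stood at 3563 ± 992 CPM in cycling macrophages and 1456 ± 250.3 CPM in T cells. FTL had another order, with 27928 ± 8767 CPM in LYVE1+ macrophages, 23072 ± 6001 CPM in GLUT1+ macrophages, 15300.2 ± 2523 CPM in C1Q+ macrophages, 11253 ± 1896 CPM in monocytes, 7959 ± 1592 CPM in cDC2 and 909 ± 245 CPM in T cells. A UMI of FTL was found in 76.9% and one of FTH1 in 87.0% of thinned T cells.

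The ratio of FTH1 to FTL UMIs was therefore taken per mouse, a measure chosen after the values were seen. UMIs at transcript ends are not levels per length, so the ratio is read only between classes. It was 0.43 ± 0.10 in C1Q+ macrophages (lowest mouse 0.32, median 0.40, highest 0.70) and 0.87 ± 0.13 in monocytes, higher in 14 of 14 mice by 1.04 on the log2 scale (exact sign-flip permutation test, two-sided, adjusted p over 15 classes = 0.000366). cDC2 stood at 1.27 ± 0.32 and T cells at 1.67 ± 0.32. Among macrophages the ratio was 0.31 ± 0.06 in cycling cells, lower than in C1Q+ macrophages in 13 of 13 mice (adjusted p = 0.00061 by the same exact test), and 0.47 ± 0.09 in GLUT1+ cells, higher in 11 of 13 mice (adjusted p = 0.0160, exact). CXCL10+ macrophages had a mean of 0.38, lower in 12 of 14 mice (adjusted p = 0.0235, exact). LYVE1+ macrophages had a mean of 0.31, but with 5 mice the exact test (p = 0.125) cannot go below 0.0625.

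**Figure D2:**
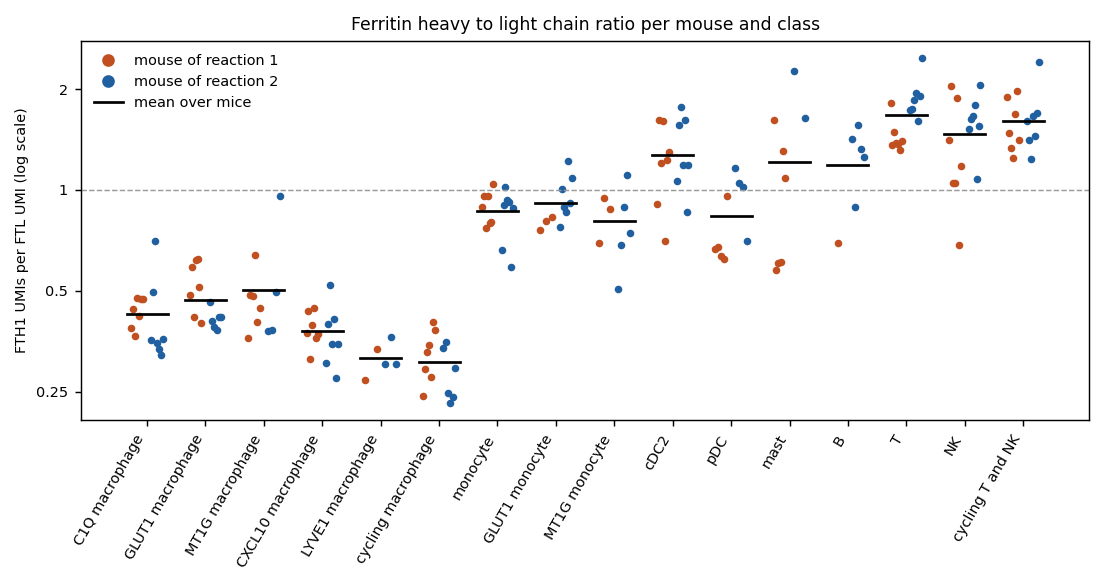
Ratio of FTH1 to FTL UMIs by gated cell class on a logarithmic axis, with a dashed line at 1; each point is 1 mouse with at least 10 cells of the class, coloured by reaction, and the bar is the mean over mice. Macrophage classes lay between means of 0.31 and 0.50, monocytes at 0.87, cDC2 at 1.27 and T cells at 1.67.

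SLC40A1, the iron exporter, was high in macrophages and near background in monocytes and dendritic cells. C1Q+ macrophages held 246 ± 76.6 CPM, with mice from 113 over a median of 248 to 380 CPM, whereas monocytes held 10.4 ± 7.70 CPM, from 2.57 over 8.72 to 26.1 CPM. No mouse's monocytes reached the level of the lowest C1Q+ macrophages. How many of all genes part these 2 classes in this way was not counted, and 53.7% of genes were called between them. CXCL10+ macrophages held 247 ± 142 CPM, GLUT1+ macrophages 189.5 ± 81.2 CPM, cycling macrophages 147 ± 73.2 CPM, MT1G+ macrophages 120 ± 71.5 CPM and cDC2 11.6 ± 11.2 CPM. A UMI was found in 61.3% of thinned LYVE1+ macrophages, 28.7% of C1Q+ macrophages, 1.65% of monocytes and 0.78% of T cells.

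TFRC and the phagosomal transporter SLC11A1 had other orders. TFRC, the transferrin receptor, stood at 744 ± 254 CPM in GLUT1+ macrophages, 742 ± 335 CPM in LYVE1+ macrophages, 453 ± 151 CPM in C1Q+ macrophages, 439 ± 156 CPM in monocytes, 151 ± 47.8 CPM in T cells and 98.9 ± 27.8 CPM in NK cells, and no step between neighbouring classes passed adjustment. SLC11A1 led in GLUT1+ monocytes with 874 ± 208 CPM (lowest mouse 591, median 897.5, highest 1149 CPM). It stood at 545.5 ± 98.9 CPM in monocytes, 514 ± 73.0 CPM in GLUT1+ macrophages, 240 ± 38.0 CPM in C1Q+ macrophages, 155 ± 47.1 CPM in CXCL10+ macrophages and 42.9 ± 13.9 CPM in LYVE1+ macrophages. Of thinned cells, 67.5% of GLUT1+ monocytes, 33.2% of C1Q+ macrophages, 9.15% of LYVE1+ macrophages and 1.496% of T cells held a UMI of it.

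The macrophage states were then compared with C1Q+ macrophages within mice, on UMIs summed per mouse and class (edgeR's quasi-likelihood test with a mouse term over 10378 genes, Benjamini-Hochberg adjustment). The fitted classes, T and NK cells among them, shared a joint fit. Its p-values therefore draw on the spread over all these classes and not only on the pair compared. In GLUT1+ macrophages, the state with hypoxia genes, 22.3% of all genes tested were called, 1210 higher and 1109 lower, and of the 10 members 5 were higher and 1 lower. HMOX1 rose by 1.24 on the log2 scale (SE 0.24, adjusted p = 1.6e-05), or 2.37-fold, and was higher in 12 of 13 mice. SLC11A1 rose by 1.25 (SE 0.12, adjusted p = 2.4e-16), FTH1 by 0.90 (SE 0.12, adjusted p = 1.5e-10), TFRC by 0.88 (SE 0.19, adjusted p = 0.000201) and FTL by 0.69 (SE 0.12, adjusted p = 7.4e-07), the ferritin chains in 13 of 13 mice. BLVRA fell by 0.36 (SE 0.13, adjusted p = 0.0295). SLC40A1 (log2 fold change −0.29), CD163 (−0.27), SLC48A1 (−0.15) and BLVRB (0.13) did not pass, although CD163 was lower in 13 of 13 mice and SLC40A1 in 10 of 13 by their CPM. The median log2 fold change was 0.41 over the members and −0.06 over all genes. HMOX1 was 1.499 higher in reaction 1 and 0.96 higher in reaction 2, where it no longer passed (adjusted p = 0.065), and BLVRA was also lost in reaction 2 alone.

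In MT1G+ macrophages 2.85% of all genes were called, and 2 of the 10 members. FTH1 rose by 0.52 (SE 0.12, adjusted p = 0.0059), and SLC40A1 fell by 1.09 (SE 0.22, adjusted p = 0.00038), lower in 10 of 10 mice. HMOX1 had a log2 fold change of 0.82 (SE 0.26, adjusted p = 0.061) and was higher in 7 of 10 mice. SLC48A1 (0.66), FTL (0.25), TFRC (0.24), BLVRA (0.22), BLVRB (0.19), CD163 (0.18) and SLC11A1 (0.12) did not pass either. The SLC40A1 call was lost in reaction 2 alone and the FTH1 call in reaction 1 alone. In CXCL10+ macrophages, the interferon state, 6.41% of genes were called, with BLVRA higher by 0.37 (SE 0.11, adjusted p = 0.028) and SLC11A1 lower by a log2 fold change of −0.61 (SE 0.13, adjusted p = 0.00027; lower in 13 of 14 mice). The BLVRA call did not hold under 4 of 6 other settings (no low-count filter, either reaction alone, cells above 1000 genes), and the SLC11A1 call was lost in reaction 1 alone. The values of the others, none of which passed, were −0.55 for SLC48A1, −0.34 for TFRC, −0.23 for HMOX1, −0.087 for FTH1, −0.016 for SLC40A1, 0.065 for BLVRB, 0.066 for FTL and 0.13 for CD163.

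LYVE1+ macrophages, gated on the hyaluronan receptor of resident tissue macrophages, had the most members called. They came from 5 mice with at least 10 such cells, 2 of reaction 1 and 3 of reaction 2, and 17.9% of all genes were called. Because the fit was joint over classes, the p-values of this contrast do not measure agreement among these 5 mice alone. Of the 10 members 8 rose and 1 fell, with a median log2 fold change of 0.84 against −0.03 over all genes. SLC40A1 stood at 864 and 548 CPM in untreated mice 2 and 3, at 1765 CPM in untreated mouse 7, and at 902 and 969 CPM in maraviroc-treated mice 5 and 7. The C1Q+ macrophages of the same mice held 153.5, 203.5, 354.5, 290 and 275 CPM, so the 2 classes did not overlap. How many of all genes part them in this way was not counted, so the separation is not read as a result about SLC40A1. The fold change was 4.48 (log2 2.16, SE 0.21, adjusted p = 5.9e-17).

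BLVRB rose by 1.70 in LYVE1+ macrophages (SE 0.15, adjusted p = 5.2e-19), with 642, 754, 390, 849 and 705 CPM in the same order of mice. SLC48A1 rose by 1.28 (SE 0.30, adjusted p = 0.00062), FTL by 0.98, BLVRA by 0.96, CD163 by 0.73, TFRC by 0.71 and FTH1 by 0.58. SLC11A1 was 5.65-fold lower (log2 fold change −2.498, SE 0.26, adjusted p = 1.7e-15): its levels were 44.4, 52.8, 59.6, 29.5 and 28.2 CPM against 281, 246, 323, 197 and 226 CPM in C1Q+ macrophages. As for SLC40A1, the genes that part the classes in this way were not counted. The heme transporter, reductases, ferritin chains, iron exporter, CD163 and TFRC were thus higher, and the phagosomal metal transporter was lower. For the ferritin chains untreated mouse 3 stood apart, with FTH1 at 14466 CPM (next mouse 8412) and FTL at 43219 CPM (next mouse 26396). HMOX1 did not pass (0.70, SE 0.33, adjusted p = 0.14). It stood at 2162, 1066.5, 633, 629 and 433 CPM against 757, 609, 665, 799 and 320 CPM, higher in 3 of 5 mice, and the difference was −0.08 in reaction 2 alone. The TFRC call (adjusted p = 0.047) was lost under 3 of 5 other settings and the SLC48A1 call in reaction 2 alone.

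In cycling macrophages 26.8% of all genes were called, and of the members 7 fell and none rose. The median was −0.56 over the members and −0.02 over all genes. FTH1 fell by 0.92, SLC40A1 by 0.87, SLC11A1 by 0.73, TFRC by 0.71, HMOX1 by 0.65, CD163 by 0.47 and FTL by 0.46 on the log2 scale. BLVRA (−0.15), BLVRB (−0.18) and SLC48A1 (−0.42) did not pass. TFRC, which dividing cells use to take up iron, was lower in 11 of 13 mice. The HMOX1 call (adjusted p = 0.041) was lost under DESeq2, with stricter gates and in either reaction alone, the CD163 call in reaction 2 alone and the TFRC call in reaction 1 alone. Among lymphocytes, cycling T and NK cells were set against T and NK cells: 25.2% of all genes were called, but none of the 10 members (2 had an unadjusted p under 0.05, SLC11A1 and CD163, and the smallest adjusted p in edgeR was 0.115). The TFRC difference was 0.07 (SE 0.20, 95% interval −0.31 to 0.46), and the other members lay between −0.80 (SLC40A1) and 0.22 (BLVRA).

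Monocytes differed from C1Q+ macrophages in 53.7% of all genes and in 8 of the 10 members, 2 higher and 6 lower, with a median of −0.48 over the members and −0.03 over all genes. SLC11A1 rose by 1.26 (SE 0.12, adjusted p = 5.7e-19) and FTH1 by 0.67 (SE 0.11, adjusted p = 1.4e-07). SLC40A1 was 26.1-fold lower (log2 fold change −4.70, SE 0.22), CD163 fell by 1.47, HMOX1 by 0.70 (SE 0.23, adjusted p = 0.0072; lower in 14 of 14 mice), SLC48A1 by 0.67, BLVRB by 0.60 and FTL by 0.36. For TFRC the difference was 0.04 with a 95% interval from −0.32 to 0.40, and BLVRA (−0.14) did not pass, although it was lower in 12 of 14 mice by its CPM. The HMOX1 and FTL calls were lost in reaction 2 alone and the SLC48A1 call in reaction 1 alone. In cDC2, 44.2% of genes were called, with FTH1 higher by 0.67 and 7 members lower: SLC40A1 by a log2 fold change of −4.62, CD163 by −2.88, HMOX1 by −1.89, SLC48A1 by −1.003, FTL by −0.89, BLVRB by −0.59 and SLC11A1 by −0.47. TFRC (−0.43, adjusted p = 0.065) and BLVRA (−0.17) did not pass.

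**Figure D3:**
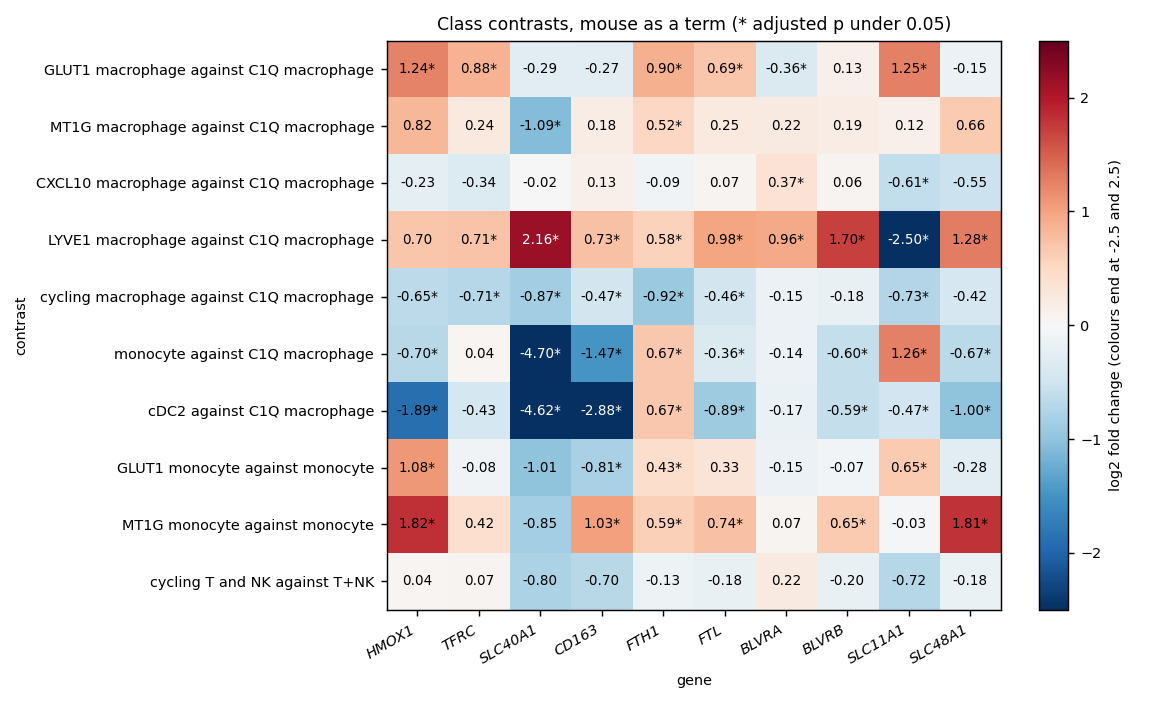
Log2 fold change of each gene in each class contrast (edgeR, mouse as a term); blue is lower and red is higher in the first-named class, and a star marks an adjusted p under 0.05. LYVE1+ macrophages show 8 members higher and SLC11A1 lower, cycling macrophages 7 lower, and monocytes and cDC2 SLC40A1 at −4.70 and −4.62.

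The GLUT1+ and MT1G+ states of monocytes were set against monocytes without these states, comparisons added after the data were seen. In GLUT1+ monocytes 11.2% of all genes were called and 4 members, and the median log2 fold change was −0.08 over the members and −0.14 over all genes. HMOX1 rose by 1.08 (SE 0.27, adjusted p = 0.0032; higher in 6 of 10 mice), SLC11A1 by 0.65 and FTH1 by 0.43, and CD163 fell by 0.81. FTL (0.33), BLVRB (−0.071), TFRC (−0.082), BLVRA (−0.15), SLC48A1 (−0.28) and SLC40A1 (−1.01) did not pass. The HMOX1 difference was 2.14 in reaction 1 and 0.49 in reaction 2, where it did not pass (adjusted p = 0.49). The SLC11A1 call was lost in reaction 1 alone, and those of FTH1 and CD163 in either reaction. In MT1G+ monocytes 7.65% of genes were called and 6 members, all higher: HMOX1 by 1.82 (SE 0.28, adjusted p = 5.7e-07; higher in 7 of 8 mice), SLC48A1 by 1.81, CD163 by 1.03, FTL by 0.74, BLVRB by 0.65 and FTH1 by 0.59. TFRC (0.42), BLVRA (0.071), SLC11A1 (−0.029) and SLC40A1 (−0.85) did not pass. In reaction 1 alone only the HMOX1 call remained (1.51, against 1.93 in reaction 2). The SLC48A1 call was also lost with stricter gates. The median was 0.62 over the members and −0.10 over all genes.

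Of the other 62 heme and iron genes, 39 passed the low-count filter and were tested in these contrasts, and their counts are read against the share of all genes called. In GLUT1+ macrophages (22.3% of all genes called) 4 rose and 3 fell, with MAFF, a small partner of the heme-responsive transcription factors, at 1.11, the mitochondrial iron importer SLC25A37 at 0.67, SLC11A2 at 0.49, the metalloreductases STEAP4 at −1.67 and STEAP3 at −1.29, and SLC39A8 at −0.54. In MT1G+ macrophages (2.85%) 1 rose (STEAP4, 1.23) and 1 fell (BACH1, the repressor of HMOX1, −0.45), and in CXCL10+ macrophages (6.41%) 2 rose (SLC25A28, 0.83, and ALAS1, the first enzyme of heme synthesis, 0.69). In LYVE1+ macrophages (17.9%) 8 rose and 4 fell, led by the exporter ABCG2 (2.34), the ferric reductase CYBRD1 (2.23) and HEBP1 (1.75), with SLC25A37 (−1.01), SLC39A8 (−0.82) and FLVCR2 (−0.73) lowest. In cycling macrophages (26.8%) 2 rose (CYBRD1, 1.05, and PCBP2, 0.29) and 10 fell, with STEAP3 (−1.60), STEAP4 (−1.02) and FECH, the last enzyme of heme synthesis (−0.88), lowest.

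In monocytes, where 53.7% of all genes were called, 14 of the 39 rose and 11 fell. Haptoglobin (HP, 3.60), STEAP4 (2.96) and SLC25A37 (2.09) had the largest rises, and CYBRD1 (−2.01), ABCG2 (−1.95) and ABCC5 (−1.91) the largest falls. In cDC2 (44.2%) 8 rose, led by STEAP4 (2.48), BMP6 (2.28) and SLC25A37 (0.65), and 9 fell, with ABCG2 (−3.16), ABCC5 (−1.82) and SLC11A2 (−1.19) lowest. Cycling T and NK cells (25.2%), in which no member was called, had 5 listed genes higher, led by ABCG2 (2.17), PCBP2 (0.45) and FBXL5 (0.44), and 6 lower, with STEAP3 (−2.68), MAFF (−0.84) and SLC25A37 (−0.64) lowest. GLUT1+ monocytes (11.2%) had SLC25A37 (0.69) and BACH1 (0.30) higher and SLC39A8 (−1.50) and UROS (−1.24) lower. MT1G+ monocytes (7.65%) had 1 listed gene higher (SLC39A8, 0.75) and 6 lower, STEAP4 (−1.14) and SLC25A37 (−0.76) among them. HP had 0 UMIs in MT1G+ monocytes against 115 UMIs (7.35 CPM) in monocytes, at least 4.04-fold lower when set against a floor of 3 counts over the class.

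The study treats HMOX1+ macrophages as a population of their own, so macrophages thinned to 2000 UMIs were split by whether they held an HMOX1 UMI. This gave 2072 cells with and 2963 without in 14 mice, and the share with a UMI ranged from 32.0% over a median of 40.9% to 46.3%. Macrophages under 2000 UMIs were left out, most of them in reaction 1. Maraviroc-treated mouse 3 of reaction 1 had 747 macrophages, of which 232 with and 287 without HMOX1 entered the split. Maraviroc-treated mouse 4 of reaction 2 had 305, of which 122 with and 181 without entered. HMOX1 itself made the split and is not tested. Of the genes tested within mice, 5.92% were called, and of the other 9 members 8 could be tested, of which 5 were higher in the cells with HMOX1 and none lower.

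Both ferritin chains were higher in the cells with an HMOX1 UMI after thinning. FTH1 stood at 8952 ± 2204 CPM with and 5777 ± 1148 CPM without HMOX1, higher in 14 of 14 mice by 0.64 on the log2 scale (SE 0.04, adjusted p = 2.3e-20, edgeR). FTL stood at 20284 ± 4120 against 14428 ± 1814 CPM, higher in 14 of 14 mice by 0.49 (SE 0.04, adjusted p = 6.15e-16). SLC40A1 was higher in 12 of 14 mice by 0.47 (288 ± 123 against 204 ± 73.7 CPM, adjusted p = 1.6e-05) and SLC11A1 in 12 of 14 mice by 0.30 (adjusted p = 0.0031). CD163 was higher in 11 of 14 mice by 0.19 (adjusted p = 0.035), a call that did not hold under any of the 3 other settings. BLVRB (0.21, adjusted p = 0.052), TFRC (0.04) and BLVRA (−0.14) did not pass, though TFRC was called at 0.27 with cells thinned to 4000 UMIs. SLC48A1 was too low to be tested and stood at 25.5 against 8.93 CPM, higher in 12 of 14 mice.

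The states were not evenly spread over the split, with a UMI of HMOX1 in 54.9% of thinned GLUT1+ and 40.3% of thinned C1Q+ macrophages, so it was repeated within C1Q+ macrophages without a state. There FTH1 was higher by 0.52, FTL by 0.49 and SLC40A1 by 0.58, and all 3 passed again, whereas SLC11A1 did not (0.14, adjusted p = 0.59). Of the other listed genes, 22 were tested in the split over all macrophages, with ABCC5 higher (0.47) and NFE2L2, which encodes the activator of HMOX1 known as NRF2, lower (−0.20).

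**Figure D4:**
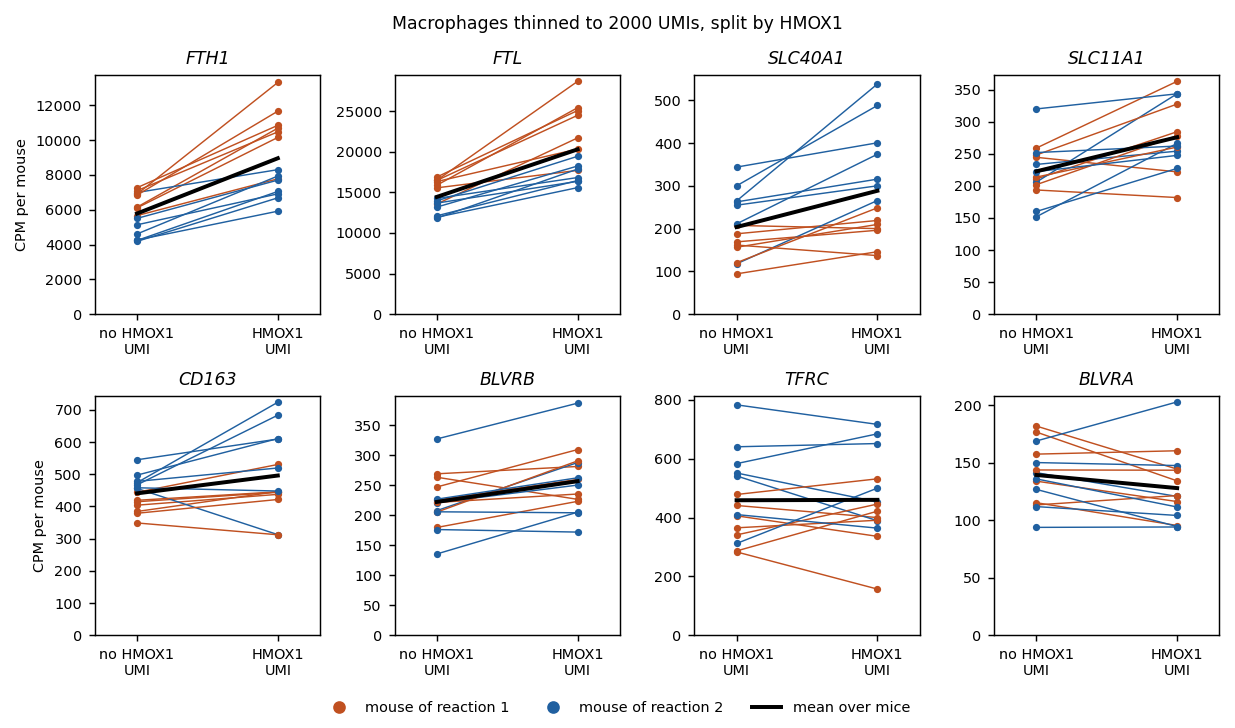
Levels of 8 members in macrophages thinned to 2000 UMIs, without and with an HMOX1 UMI, in CPM on linear axes that start at 0; a thin line joins the values of 1 mouse, coloured by reaction, and the thick line the means over mice. FTH1 and FTL rose with HMOX1 in 14 of 14 mice, and TFRC in 7 of 14.

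Maraviroc-treated and untreated mice were compared over all myeloid cells, the comparison the study made. Of 12809 genes, 0.0% were called by edgeR (444 had an unadjusted p under 0.05, and DESeq2 called 2 genes), and no member had an unadjusted p under 0.05. HMOX1 stood at 312, 681 and 911 normalized CPM in the lowest, median and highest untreated mouse and at 386, 599 and 733 in maraviroc-treated mice, and the difference was −0.18 on the log2 scale (SE 0.18, 95% interval −0.54 to 0.18). FTH1 stood at 5972, 9795 and 11446 normalized CPM against 6583, 8121 and 9972 (−0.13). The groups overlapped for each of the 10 genes. The intervals spanned −0.16 to 0.49 for TFRC, −0.55 to 0.49 for SLC40A1, −0.23 to 0.30 for CD163, −0.42 to 0.14 for FTL, −0.17 to 0.21 for BLVRA, −0.23 to 0.20 for BLVRB, −0.25 to 0.14 for SLC11A1 and −0.51 to 0.07 for SLC48A1, so that changes of about that size could not be seen. For TFRC the study reports lower levels in the myeloid cells of maraviroc-treated mice, from its own selection of cells. The TFRC interval here, −0.16 to 0.49, holds both lower and higher values. A sum over all myeloid cells also moves with the mix of classes in a mouse.

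For FTH1 the values of the reactions are given apart, because its interaction of treatment and reaction was the nearest to a call among the members. In reaction 1 the 3 maraviroc-treated mice (7535 to 8131 normalized CPM) all lay below the 4 untreated mice (9795 to 11446), a difference of −0.40 (edgeR adjusted p = 0.089). Over all genes in reaction 1, edgeR called 0 of 12815, and 1428 had an unadjusted p under 0.05. How many genes part the mice in this way was not counted, so the separation is not read as a result about FTH1. In reaction 2 the 4 maraviroc-treated mice (6583 to 9972) overlapped the 3 untreated mice (5972 to 6960), with a difference of 0.33. The interaction of treatment and reaction was 0.74 for FTH1 (SE 0.18, edgeR adjusted p = 0.185) and 0.74 for TFRC (adjusted p = 0.285), both under 0.05 unadjusted. The interaction called 0.0% of 12809 genes, with 1733 at an unadjusted p under 0.05.

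Within the classes, 12 had enough mice of both treatments. No member was called in any of them, and the share of all genes called was 0.0% in 11 classes and 0.0299% in MT1G+ monocytes. The smallest unadjusted p of a member was that of TFRC in cycling macrophages. It stood at 87.3, 213.5 and 314 normalized CPM in the lowest, median and highest untreated mouse and at 274, 447 and 695 in maraviroc-treated mice, a difference of 1.11 (SE 0.24, adjusted p = 0.281 with edgeR and 0.057 with DESeq2). In reaction 1 the maraviroc-treated mice lay at 274 to 494 against 87.3 to 314, and in reaction 2 at 334.5 to 695 against 126 to 275. How many of all genes part the mice of reaction 2 in this way was not counted. The separation is therefore not read as a result about TFRC. HMOX1 in the same cells stood at 179, 291 and 533 against 250.5, 690 and 848 normalized CPM (0.90, edgeR adjusted p = 1).

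The share of thinned macrophages with an HMOX1 UMI ran from 36.4% over a median of 40.6% to 44.6% in untreated mice and from 32.0% over 41.1% to 46.3% in maraviroc-treated mice (mean difference −0.579 percentage points, two-sided exact permutation p = 0.797 over 3432 labelings). Without thinning the difference was 4.16 percentage points (p = 0.458, the same exact test). Treatment was also compared among macrophages with an HMOX1 UMI before thinning, a wider set than the cells with HMOX1 of the split. A median of 62.1% of macrophages in untreated and 76.3% in maraviroc-treated mice belonged to it, and membership depends on a cell's depth. In this set treatment called 0.0% of 11070 genes (334 at an unadjusted p under 0.05 in edgeR, and 1 gene by DESeq2). The member nearest to a call there was SLC11A1, with a difference of −0.20 that did not pass unadjusted either. Of the other listed genes, 48 were tested over all myeloid cells, and none was called there or in another treatment comparison.

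**Figure D5:**
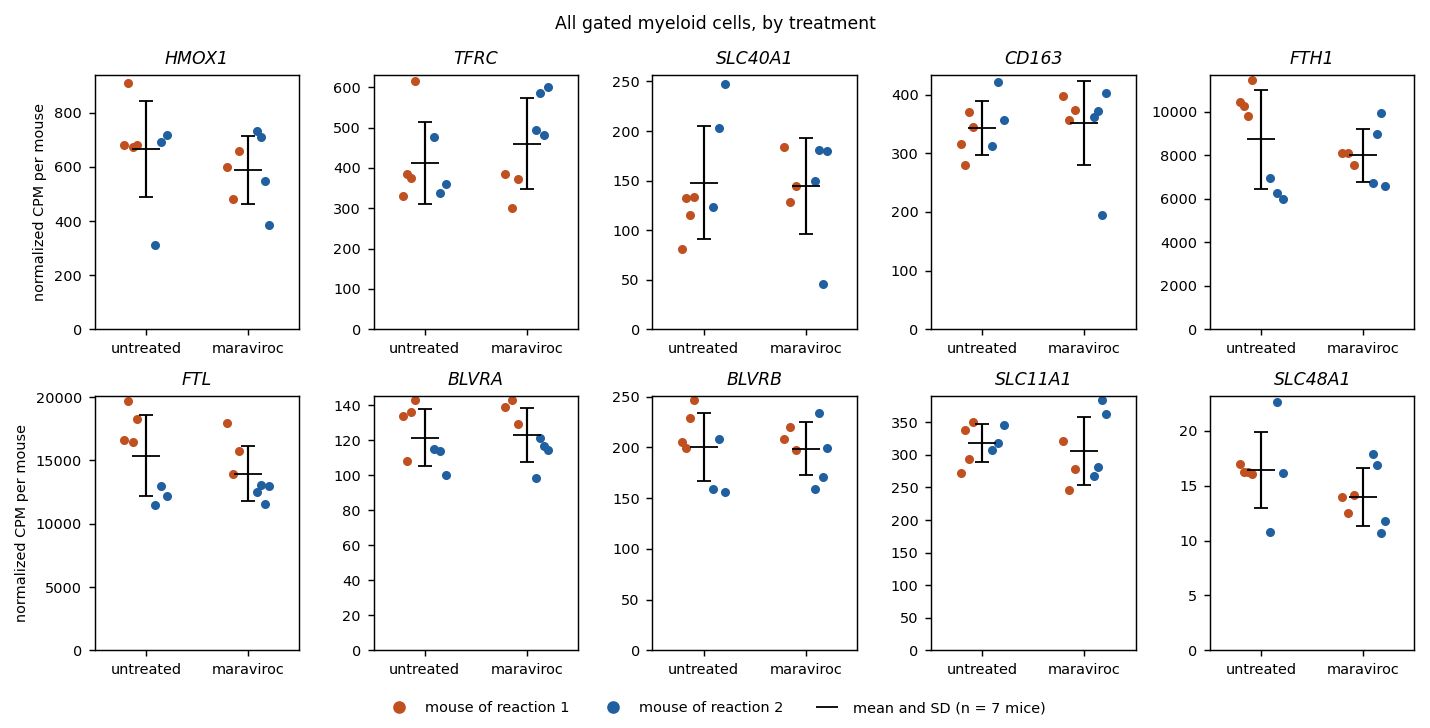
Normalized CPM of each member over all myeloid cells of a mouse, by treatment, on linear axes that start at 0; each point is 1 mouse, coloured by reaction, and the black mark gives the mean and SD of 7 mice. The 2 groups overlap in every panel. Within reaction 1 the FTH1 points fall apart by treatment (7535 to 8131 against 9795 to 11446), a difference that did not pass adjustment.

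Genes with the most similar pattern over 19 classes were found by Pearson's r of log2(CPM + 1) among 9247 genes, as a description over classes that share mice and libraries. HMOX1 was most like the lysosomal enzyme gene GAA (r = 0.95), followed by PCSK5 and FTL. TFRC was most like ATG7 (0.94), MCOLN1 and ATP6V1B2, and SLC40A1 most like LILRB5 (0.98), AP2A2 and C1QA, a gate marker. CD163 was most like CD14 (0.98), MFSD1 and SPRED1, and SLC11A1 most like CLEC5A (0.98), SERPINA1 and VSIR. The ferritin chains had separate neighbours: ADAMTSL4 (0.93), IL6R and ZFAND5 for FTH1, and CD68, a gate marker (0.98), BRI3 and ATP6V0C for FTL. BLVRA was nearest to PPM1N (0.95), TTC7B and TOR4A, BLVRB to ME1 (0.97), CDS1 and VSIG4, and SLC48A1 to CTSL (0.92), BLVRB and ACVRL1.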

How the data were processed

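Gene and hashtag UMI counts were deposited per reaction; the authors made them with Cell Ranger 9.0.1 against GRCh38 from Chromium 3′ v3.1 libraries and analysed them in Seurat 5.1.0. Depth was 133089612 UMIs in reaction 1 and 175447534 in reaction 2. Barcodes with over 600 and up to 6000 genes and under 12.5% mitochondrial UMIs were kept, 1 range for all mice where the study set its gene limits within this range by mouse, and hashtags were called with HTODemux (Seurat 5.3.0, quantile 0.99), which removed barcodes with several hashtags or none; no other doublet caller was run. Cells with both myeloid and lymphoid markers, 3102 in number at a median of 2139 UMIs, were left out of the classes. They were 3052 of the 11917 kept cells of reaction 1 and 50 of the 7900 of reaction 2. The part of free RNA or of doublets in them was not tested. Gates used marker UMIs per 10000 UMIs of the cell: for macrophages at least 10 per 10000 and 2 UMIs, for monocytes 30 and 3, for GLUT1+ 6 and 3, for MT1G+ 5 and 3, for CXCL10+ 6 and 3, for LYVE1+ 2 and 2, and for cycling 8 and 3. Cells of several states were kept apart.

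UMIs were summed per mouse and class where a mouse had at least 10 cells and were tested across mice with edgeR 4.0.16 (TMM, filterByExpr, quasi-likelihood, adjusted p under 0.05) in R 4.3.3. The class contrasts came from a joint fit of the macrophage, monocyte, cDC2, T and NK classes with the mouse as a term. The treatment comparisons carried no covariate. The study's own model for treatment is not given in the sources used here. DESeq2 1.42.0, other filters, gates and depths, each reaction alone and the reaction as a block were alternatives. cDC1 could not be fitted, since 1 mouse had at least 10 of them. CPM scale the UMIs of a class sum to a total of 1000000, and normalized CPM use TMM. Shares of cells with a UMI were taken at 2000 UMIs per cell, and cells with fewer were left out of them. The replicate is the mouse. The fits were tested on simulated counts in which 200 genes carried a log2 change of 1. The fit found 158 for the GLUT1+ contrast with 13 false calls among 9837 genes, and 178 for the treatment comparison with 11 among 12586. The simulated counts were drawn from the fitted means and dispersions, and recovery of smaller changes was not tested.

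The members are named in each class contrast and in the treatment comparison over all myeloid cells, and within single classes only those nearest to a call. Of the other listed genes, up to 3 with the largest and 3 with the smallest called log2 fold change are named, and the monocyte state contrasts and the FTH1 to FTL ratio were added after seeing the data. The members, lists, gates and tests were chosen with earlier results of these data known.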

Additional observations from a re-analysis of the deposited data

Results flagged for a closer look

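In 21 of 110 groups of 4 to 10 mice examined, 1 mouse stood apart from the others by more than the critical gap. For independent, normally distributed groups chance gives about 1 in 20. The groups share mice and cells, and several flags come from the same pDC, so the count is not read as an excess. Over all myeloid cells, HMOX1 in untreated mouse 5 was 312 normalized CPM with the next mouse at 672. In maraviroc-treated mouse 6, CD163 was 194 (next 357) and SLC40A1 46.0 (next 128), and macrophages were 24.8% of its myeloid cells. Among macrophages with an HMOX1 UMI before thinning, BLVRA in maraviroc-treated mouse 4 was 94.0 (next 131).

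The other flags concern single classes, in CPM. In the pDC of untreated mouse 1 (13 cells) HMOX1 was 308, BLVRB 262, CD163 169.6, BLVRA 77.1 and SLC48A1 30.8, beside C1Q transcripts at 1634; in the pDC of maraviroc-treated mouse 1 SLC40A1 was 64.7. In mast cells HMOX1 was 355 in untreated mouse 2 and CD163 300.1 in maraviroc-treated mouse 3. In LYVE1+ macrophages of untreated mouse 3 FTH1 was 14466 and FTL 43219. In GLUT1+ monocytes TFRC was 1155 and BLVRA 215 in untreated mouse 3, and FTH1 was 22213 and BLVRB 354 in untreated mouse 4. SLC40A1 was 302 in the MT1G+ macrophages of untreated mouse 6. SLC48A1 was 107 in the MT1G+ monocytes of maraviroc-treated mouse 4 and 7.20 in its B cells, the other mice with B cells being at 0.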

How the results depend on the processing

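Of 57 member calls in the class contrasts and the HMOX1 split, 57 kept their sign under every alternative and 32 were called under every one; the reversals below are of values that did not pass the test. The reactions differ in depth, and a single reaction has fewer mice.

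With reaction 1 alone, 1204 genes were called in GLUT1+, 59 in MT1G+, 277 in CXCL10+ and 1290 in cycling macrophages, 3542 in monocytes, 2133 in cDC2, 1021 in cycling T and NK cells, 222 in GLUT1+ and 49 in MT1G+ monocytes. Log2 fold changes reversed for TFRC (0.31), BLVRA (0.19) and BLVRB (0.43) in GLUT1+ monocytes, BLVRA in MT1G+ monocytes (−0.38), and TFRC (−0.27) and SLC40A1 (0.40) under treatment. With reaction 2 alone, 857, 82, 253 and 1839 genes were called in the same 4 macrophage contrasts, 599 in GLUT1+ and 335 in MT1G+ monocytes. BLVRB in GLUT1+ (−0.094), SLC40A1 (0.12) and BLVRB (−0.050) in CXCL10+ and HMOX1 in LYVE1+ macrophages (−0.076), TFRC in monocytes (−0.26), HMOX1 (−0.10), FTL (0.066) and SLC48A1 (0.075) in cycling T and NK cells, and SLC40A1 (0.047) and SLC11A1 (0.060) in MT1G+ monocytes reversed, as did HMOX1 (0.041), CD163 (−0.13), FTH1 (0.33), FTL (0.034) and BLVRB (0.13) under treatment.

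With state gates at 2 times the minimum, 502 genes were called in MT1G+ and 1061 in CXCL10+ macrophages and 327 in MT1G+ monocytes. SLC48A1 in GLUT1+ macrophages (0.069), TFRC in monocytes (−0.055), TFRC (−0.060) and BLVRA (−0.27) in cycling T and NK cells, and BLVRA (−0.072) and SLC11A1 (0.14) in MT1G+ monocytes reversed. Without the low-count filter, 770 genes were called in MT1G+ macrophages, and SLC11A1 in MT1G+ (−0.022), FTL (−0.031) and BLVRB (−0.026) in CXCL10+ macrophages and TFRC in monocytes (−0.022) reversed. Cells above 1000 genes gave 1868 calls in GLUT1+ monocytes. DESeq2 gave 184 calls in the split, 2 for treatment over all myeloid cells, 3 in MT1G+ macrophages, 1 in T cells, 2 in cDC2 and 1 in macrophages with HMOX1, and reversed TFRC in monocytes (−0.10), TFRC (0.095) and BLVRB (0.060) in GLUT1+ and SLC11A1 in MT1G+ monocytes (0.073). The split gave 562 calls at 4000 UMIs and 81 within C1Q+ macrophages, where TFRC was −0.047. Without thinning, the treatment difference of the HMOX1 share was 4.16 percentage points against −0.579. The cause of these changes was not tested.

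The hashtags' numbers pair no mice across treatments, so the replicate block was the reaction. With this block BLVRB under treatment was 0.028, 1 gene was called in GLUT1+ monocytes, TFRC (−0.022), SLC40A1 (−0.033) and BLVRB (0.023) reversed in macrophages with HMOX1, and TFRC in cycling macrophages kept its difference of 1.11 (adjusted p = 0.312). Leaving out 1 mouse at a time moved the treatment difference over all myeloid cells from −0.14 to 0.14 for SLC40A1, −0.0081 to 0.14 for CD163, −0.027 to 0.061 for BLVRA and −0.069 to 0.042 for BLVRB, without a change of sign for the other members. Counted over all alternatives run, 495 class, 18 split and 205 treatment values kept their direction and their side of the threshold, and 28, 1 and 25 reversed. A hashtag quantile of 0.95 was run for treatment only. The floor behind the HP bound covers counting error only. The SE of an edgeR fold change was worked back from the F statistic of the fit over mice, and is unstable near a fold change of 0. The 95% intervals use normal quantiles of that SE, which makes them somewhat too narrow for so few mice.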
